A study of Homo sapiens with 18 samples.

Results

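Histones are the proteins around which DNA is wound, and this report describes their genes in OCI-AML3, a human acute myeloid leukaemia cell line. A gene was taken when its probe carried a single symbol beginning H1-, H2AC, H2BC, H3C or H4C, or a name that began HIST1, HIST2 or HIST3 in older naming, and H2AZ1, H2AZ2, H2AX, H3-3A and H3-3B were added. This gave 69 histone genes among the 17687 genes with a named probe. Of these, 56 are replication-dependent, 5 are replacement or variant genes (H1-10, H2AX, H2AZ1, H2AZ2 and H3-3B), 6 are germline genes, and the HIST3 genes H2AC25 and H2BC26 were kept apart. H3-3A had no named probe and was not analysed here.

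Wild-type OCI-AML3 cells received DMSO, the solvent, or RG7112 at 2 µM, or HDM201 at 500 nM, for 24 h. Each group had 6 biological replicates, each measured on 1 array. The culture medium, RPMI supplemented with serum, was shared by all groups. Both compounds are given as MDM2 inhibitors, and MDM2 is the ubiquitin ligase that keeps the tumour suppressor p53 low. Nothing says how the replicates of a group were kept apart as cultures. The p-values therefore cover the spread among these arrays, which may be technical in part, and 1 cell line at 1 dose and 1 time was studied.

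Replication-dependent histone genes supply the bulk of the protein that packs newly copied DNA. They lie in clusters, are transcribed mainly in S phase when cyclin E and CDK2 activate the factor NPAT, and most of their transcripts end in a stem-loop that binds SLBP in place of a poly(A) tail. Replacement and variant histones such as H3.3, H2A.Z and H1.10 come from genes outside this programme, with polyadenylated transcripts that are also made outside S phase. H2AX, which marks DNA breaks once phosphorylated, makes both kinds of transcript.

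Promoters show how the members resemble each other before any treatment, so the 160 bases just before the annotated start are given for 3 replication-dependent genes and 3 variants that the results turn on. RefSeq's promoter table (build GRCh38.p14) held 65 of the 69 members. Capitals mark the octamer ATTTGCAT, the CCAAT box CCAAT and the TATA box TATAAA, with the first and second searched on both strands and the third on the gene's own strand, and no marked motif overlaps another.
H2BC14, chr6:27814862-27815021, plus strand: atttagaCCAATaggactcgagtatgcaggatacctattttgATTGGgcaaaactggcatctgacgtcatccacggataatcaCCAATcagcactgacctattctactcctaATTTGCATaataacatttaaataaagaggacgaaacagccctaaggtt
H2AC4, chr6:26033619-26033778, minus strand: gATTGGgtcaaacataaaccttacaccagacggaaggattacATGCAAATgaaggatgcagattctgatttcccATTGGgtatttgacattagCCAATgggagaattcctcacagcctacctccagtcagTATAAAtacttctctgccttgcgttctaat
H1-5, chr6:27867589-27867748, minus strand: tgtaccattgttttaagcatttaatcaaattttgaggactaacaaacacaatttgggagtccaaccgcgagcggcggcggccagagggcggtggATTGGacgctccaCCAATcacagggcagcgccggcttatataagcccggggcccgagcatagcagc
H2AX, chr11:119095466-119095625, minus strand: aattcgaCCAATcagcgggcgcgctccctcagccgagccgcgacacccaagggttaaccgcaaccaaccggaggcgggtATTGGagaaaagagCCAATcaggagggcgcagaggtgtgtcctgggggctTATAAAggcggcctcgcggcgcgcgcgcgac
H2AZ1, chr4:99950276-99950435, minus strand: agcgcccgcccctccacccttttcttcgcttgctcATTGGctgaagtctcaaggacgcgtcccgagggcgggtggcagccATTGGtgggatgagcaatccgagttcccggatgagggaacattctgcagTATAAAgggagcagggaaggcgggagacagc
H3-3B, chr17:75779780-75779939, minus strand: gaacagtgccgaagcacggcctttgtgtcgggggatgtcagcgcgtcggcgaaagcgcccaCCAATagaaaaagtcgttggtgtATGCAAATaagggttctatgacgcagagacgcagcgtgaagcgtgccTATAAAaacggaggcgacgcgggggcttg
All 6 stretches hold CCAAT boxes, and H2BC14, H2AC4 and H3-3B hold the octamer, on the reverse strand in H2AC4 and H3-3B.

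Over the whole window of 250 bases before to 50 bases after the start, the octamer stood in 13 of 15 replication-dependent H2B promoters (86.7%) and 7 of 11 H2A promoters (63.6%). It stood in 0 of 5 H1, 0 of 8 H3 and 0 of 13 H4 promoters, and in 1.80% of all 27305 promoters of this length. A CCAAT box was found in 42 of 52 replication-dependent promoters (80.8%), against 35.7% of all promoters, and in H4 promoters it stood in 3 of 13. TATAAA was found in 61.5% of the replication-dependent promoters and in 7.71% of all. An E2F site, searched as TTTGGCGC, TTTCCCGC, TTTGCCGC or TTTCGCGC on both strands, stood in 14 of 52 (26.9%), against 3.33% of all. The CHR letters TTTGAA, also on both strands, stood in 18 of 52 (34.6%), against 15.4% of all, and both H2AX and H2AZ1 hold them. A match describes letters only.

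Values are log2 signals of 21448 probes, and a difference of group means is on the log2 scale with the standard error (SE) of a linear model. A gene "fell" or "rose" where its limma p was under 0.05 after Benjamini-Hochberg adjustment across the whole array. Array medians lay between 6.44 and 6.57. RG7112 replicate 3 had the narrowest spread of signals, an interquartile range of 3.45 where the other arrays had 3.70 to 3.91. Calls of histone genes over all arrays are given without it where it changes them. Without it 44 of the replication-dependent genes fell with RG7112 in place of 42. CDKN1A, the p53 target that encodes the cell cycle inhibitor p21, rose by 3.97 ± 0.33 under RG7112 (adjusted p = 9.07e-08) and by 4.10 under HDM201 (adjusted p = 2.28e-08). Its DMSO signals ran from 7.27 to 9.13. Within replicates 1 to 3 and 4 to 6, CDKN1A differed by 3.57 and 4.36 with RG7112 and by 3.66 and 4.54 with HDM201. A limma test of the difference between these sets did not pass for CDKN1A (adjusted p = 0.283 and 0.0728). The myeloid genes SPI1, CEBPA, PTPRC and ANPEP had DMSO means of 9.46 to 11.26, and MEIS1 and MPO, also on the myeloid list, had 8.47 and 5.41. SPI1 rose by 0.34 with RG7112 (adjusted p = 0.00111) and by 0.38 with HDM201 (adjusted p = 2.70e-04), and the other 5 passed in neither comparison; the part of SPI1 in the histone values was not tested. Of 8 measured markers of other cell types, CD3D, CD3E, MS4A1, HBB, EPCAM and KRT18 had DMSO means of 3.69 to 4.96, where 4.65 is the 25th percentile of probe means, and the collagen genes COL1A1 and COL1A2 had 6.38 and 8.24. EPCAM fell by 0.40 under HDM201 (adjusted p = 0.00585), and the other 7 passed in neither comparison. Among DMSO arrays, 38 probes were higher and 27 lower in replicates 1 to 3 than in 4 to 6 (limma, adjusted p under 0.05), so differences within these sets are also given, the value for 1 to 3 first.

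Replication-dependent histone genes were lower under both inhibitors. Under RG7112, 42 of 56 fell, none rose and 14 did not pass, where 9.61% of all probes fell and 7.90% rose. Under HDM201, 48 of 56 fell, none rose and 8 did not pass, where 9.64% of all probes fell and 9.16% rose. The median difference over the 56 genes was -0.65 with RG7112 (-0.60 within replicates 1 to 3 and -0.66 within 4 to 6) and -0.90 with HDM201 (-1.0 and -0.76), while the median over all probes was 0.03 and 0.02. All 42 that fell with RG7112 also fell with HDM201, and the comparisons share the DMSO arrays. In RNA from whole cultures, fewer cells in S phase and less histone RNA per cell cannot be told apart.

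The 35 genes with every RG7112 array below every DMSO array stand beside 5.61% of all probes with that pattern, and the 44 with HDM201 beside 6.92%. No histone gene had every treated array above every DMSO array, a pattern of 4.29% of probes with RG7112 and 6.63% with HDM201. A fall of at least 2-fold was called for 3 of the 56 with RG7112 (1.33% of all probes) and for 19 with HDM201 (1.71%). Copies of 1 histone family have near-identical coding sequences, so signal may be shared between their probes. How well the array separates them was not tested, and the members are not independent counts.

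**Figure D1:**
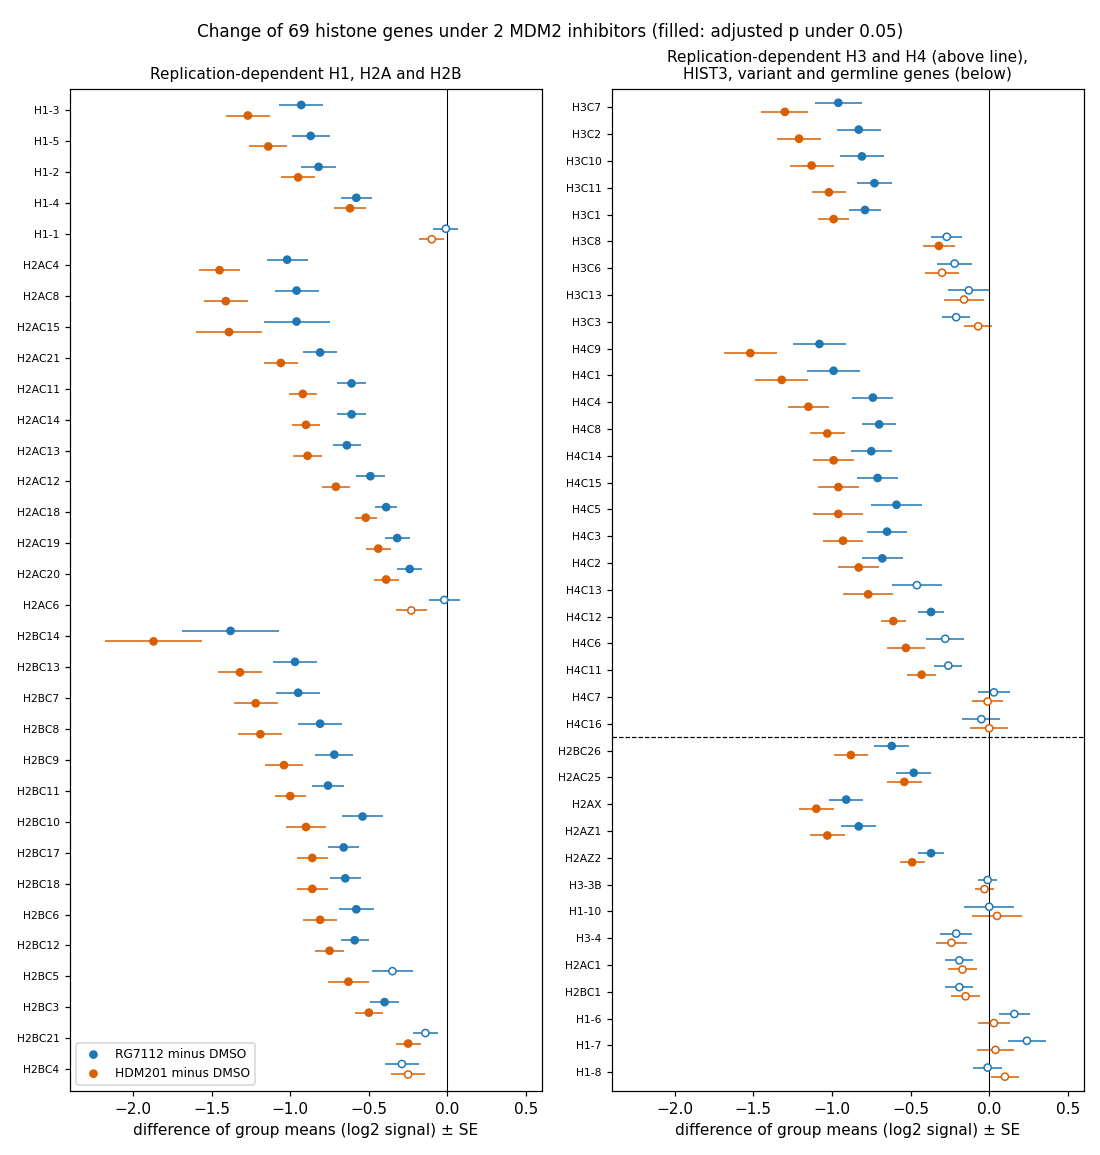
Differences of group means (log2 signal, horizontal axis) with SE for all 69 histone genes, RG7112 minus DMSO in blue and HDM201 minus DMSO in orange, 6 arrays a group, with filled points for adjusted p under 0.05. Nearly all replication-dependent genes lie left of 0, with H2BC14 lowest at -1.38 and -1.87, while H3-3B and H1-10 lie at 0.

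H2BC14, an H2B gene, had the lowest difference of all members in both comparisons. Its signal was 11.37 to 12.25 with a median of 11.82 under DMSO, 9.58 to 11.32 (median 10.40) under RG7112 and 8.99 to 10.99 (median 9.97) under HDM201. No treated array reached the lowest DMSO array, and the RG7112 and HDM201 arrays overlapped widely. It fell 2.60-fold with RG7112 (-1.38 ± 0.31, adjusted p = 0.00361; by set -1.44 and -1.31) and 3.65-fold with HDM201 (-1.87 ± 0.31, adjusted p = 1.53e-04; by set -2.21 and -1.52).

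H2AC14, the H2A gene whose start lies 245 bases from that of H2BC14 on the opposite strand, fell 1.52-fold and 1.87-fold; the difference from its neighbour was not tested. Its DMSO arrays lay between 12.22 and 12.34, its RG7112 arrays between 11.43 and 11.89 and its HDM201 arrays between 11.14 and 11.61, with no overlap between DMSO and treated arrays. Such head-to-head H2A and H2B genes formed 8 pairs among the 65 members with a RefSeq promoter, with 215 to 248 bases between the starts. H2AC12, H3C11, H4C1 and H4C3 had no such promoter, so pairs that hold them could not be counted. H2BC8 and H2AC8 differed by -0.81 and -0.96 with RG7112 and by -1.19 and -1.41 with HDM201, and both fell in each comparison. In the pair of H2BC4 and H2AC6 neither gene passed with either compound, at -0.29 and -0.02 with RG7112 and -0.25 and -0.23 with HDM201. In the pair of H2BC21 and H2AC20, the HDM201 call of H2BC21 and the RG7112 call of H2AC20 depended on single arrays, as described below. The HDM201 call of H2AC20 held in 18 of 18 fits with 1 array left out.

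Among the H2A genes 11 of 12 fell with each inhibitor, with medians of -0.61 and -0.90. H2AC4 lay at 9.35 to 9.56 (median 9.41) under DMSO, at 8.06 to 8.87 (median 8.45) under RG7112 and at 7.58 to 8.29 (median 8.01) under HDM201. All treated arrays were below all DMSO arrays. H2AC4 fell 2.03-fold (-1.02 ± 0.13, adjusted p = 1.61e-05; the same difference in both sets) and 2.74-fold (-1.45 ± 0.13, adjusted p = 1.30e-07; by set -1.64 and -1.27). H2AC8 fell 1.95-fold and 2.65-fold (adjusted p = 5.34e-05 and 3.41e-07), with DMSO arrays at 11.61 to 11.88 and HDM201 arrays at 9.84 to 10.77. H2AC15 was more variable, with an SD of 0.39 under DMSO (n = 6), and fell 1.94-fold and 2.62-fold. Within replicates 1 to 3 the RG7112 call of H2AC15 was lost (-0.72, adjusted p = 0.0517), and within 4 to 6 the difference was -1.20. The chromosome 1 copies H2AC18, H2AC19 and H2AC20 fell by 0.39, 0.32 and 0.24 with RG7112 and by 0.52, 0.44 and 0.39 with HDM201. Of these, H2AC20 kept its RG7112 call in 11 of 18 fits with 1 array left out. Leaving out any of RG7112 replicates 1, 2, 4 and 6 or DMSO replicates 2, 4 and 5 ended the call, with adjusted p over the 18 fits between 0.0102 and 0.0719. The RG7112 calls of H2AC19 and H2AC20 were lost after a further quantile normalization.

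Among the H2B genes 12 of 15 fell with RG7112 and 14 of 15 with HDM201, with medians of -0.65 and -0.86. H2BC13 lay at 7.97 to 8.23 (median 8.11) under DMSO, 6.84 to 7.39 (median 7.17) under RG7112 and 6.36 to 7.43 (median 6.76) under HDM201. Every treated array was below the lowest DMSO array, and H2BC13 fell 1.96-fold (adjusted p = 5.34e-05) and 2.50-fold (adjusted p = 8.77e-07). H2BC5 passed with HDM201 only (-0.63 ± 0.13, adjusted p = 0.00183), by -0.82 in replicates 1 to 3 and -0.44 in 4 to 6, where it did not pass (adjusted p = 0.188). With RG7112 it differed by -0.35 ± 0.13 (adjusted p = 0.0844), and it passed without RG7112 replicate 5 (0.0439) or HDM201 replicate 5 (0.0430).

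The linker histone genes H1-2, H1-3, H1-4 and H1-5, whose proteins bind DNA between nucleosomes, all fell with both compounds. H1-5 lay at 12.07 to 12.22 (median 12.11) under DMSO, 11.03 to 11.49 (median 11.27) under RG7112 and 10.59 to 11.35 (median 11.05) under HDM201. DMSO arrays of H1-5 all stood above the treated arrays, and the gene fell 1.83-fold (-0.87 ± 0.12, adjusted p = 1.79e-05) and 2.20-fold (-1.14 ± 0.12, adjusted p = 4.44e-07). H1-3 fell 1.91-fold and 2.41-fold, H1-2 1.77-fold and 1.93-fold, and H1-4 1.49-fold and 1.54-fold. H1-1 had DMSO signals of 4.12 to 4.50, below the 25th percentile of probe means, and differed by -0.01 ± 0.08 and -0.10 ± 0.08 without passing (adjusted p = 0.937 and 0.456).

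Of 9 H3 genes 5 fell with RG7112 and 6 with HDM201. H3C7 lay at 9.21 to 9.55 under DMSO, 8.03 to 8.81 under RG7112 and 7.61 to 8.42 under HDM201, without overlap of DMSO and treated arrays, and fell 1.95-fold (adjusted p = 1.01e-04) and 2.45-fold (adjusted p = 2.08e-06). H3C13, a chromosome 1 copy, had DMSO signals of 8.93 to 9.15, well inside the range of signals, and differed by -0.13 ± 0.13 (95% interval -0.41 to 0.15) and -0.16 ± 0.13 (-0.44 to 0.12). Its RG7112 arrays, at 8.45 to 9.36, lay on both sides of the DMSO arrays. H3C3, H3C6 and H3C8 had DMSO means of 3.98, 5.13 and 3.92. H3C6 did not pass with HDM201 (-0.30 ± 0.11, adjusted p = 0.0672), and did without DMSO replicate 6 or HDM201 replicate 5. Of these 3 genes, H3C8 passed with HDM201 only (-0.32 ± 0.10, adjusted p = 0.0241; with RG7112 -0.27 ± 0.10, 0.0595). The HDM201 call of H3C8 ended within each set (adjusted p = 0.102 and 0.309) and when any of HDM201 replicates 1, 2 and 6 or DMSO replicates 3 and 6 was left out, with adjusted p between 0.0111 and 0.0724 over the 18 fits. Its RG7112 difference passed without DMSO replicate 1 (0.0427) or RG7112 replicate 5 (0.0345).

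Of 15 H4 genes 10 fell with RG7112 and 13 with HDM201, with medians of -0.65 and -0.93. H4C9 lay at 8.91 to 9.03 (median 9.0) under DMSO, 7.36 to 8.25 (median 7.99) under RG7112 and 6.82 to 8.11 (median 7.60) under HDM201. The DMSO arrays of H4C9 were close together (SD 0.05, n = 6) and all above the treated arrays. H4C9 fell 2.12-fold (-1.08 ± 0.17, adjusted p = 1.02e-04) and 2.86-fold (-1.52 ± 0.17, adjusted p = 1.24e-06), and H4C1 fell 1.99-fold and 2.50-fold.

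3 H4 genes passed with HDM201 and not with RG7112. H4C13 lay at 7.47 to 7.81 under DMSO, 6.75 to 8.15 under RG7112 and 6.70 to 7.16 under HDM201, and its highest RG7112 value came from replicate 3. It fell by 0.77 ± 0.16 with HDM201 (adjusted p = 0.00153) and differed by -0.46 ± 0.16 with RG7112 (adjusted p = 0.0573). Without RG7112 replicate 3 the RG7112 difference was -0.64 and passed (adjusted p = 1.28e-04), and within replicates 4 to 6 it was -0.74 (adjusted p = 0.00168). H4C11 fell by 0.43 with HDM201 (adjusted p = 0.00153) and differed by -0.26 ± 0.09 with RG7112 (adjusted p = 0.0502), which passed without RG7112 replicates 3 (0.0217) or 5 (0.0218) or HDM201 replicates 2 (0.0488) or 5 (0.0466). H4C6 fell by 0.53 with HDM201 (adjusted p = 0.00351) and differed by -0.28 ± 0.12 with RG7112 (adjusted p = 0.120). With HDM201 the calls of H4C13 and H4C6 ended within replicates 1 to 3 (adjusted p = 0.0638 and 0.0710), and that of H4C11 within 4 to 6 (0.0655). H4C7 and H4C16, with DMSO means of 3.27 and 4.99, differed by at most 0.05 in size in either comparison and did not pass.

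Some replication-dependent genes are known also to give polyadenylated transcripts, and 6 of these were measured. H1-2 and H2BC12 fell in both comparisons, H2BC12 by 0.59 ± 0.09 and 0.75 ± 0.09 from DMSO signals of 12.61 to 12.85. H2AC6 lay at 8.20 to 8.47 (median 8.31) under DMSO, 8.11 to 8.55 (median 8.28) under RG7112 and 7.86 to 8.44 (median 8.06) under HDM201, and the groups overlapped. It differed by -0.02 ± 0.10 (95% interval -0.22 to 0.19, adjusted p = 0.942) and by -0.23 ± 0.10 (-0.44 to -0.03, adjusted p = 0.115), and passed with HDM201 when HDM201 replicate 5 was left out. H2BC4 did not pass either (adjusted p = 0.0817 and 0.145), although with RG7112 it passed without RG7112 replicate 5 or HDM201 replicate 2. H2BC21 passed with HDM201 only (-0.25 ± 0.08, adjusted p = 0.0463), and that call held in 5 of 18 fits with 1 array left out, those that left out RG7112 replicate 1, 2 or 3 or DMSO replicate 2 or 5, with adjusted p between 0.0240 and 0.123 over the 18. Within each set H2BC21 did not pass (adjusted p = 0.358 and 0.195). The medians of the 6 genes were -0.32 and -0.44, against -0.65 and -0.92 for the other 50, and the difference between these sets was not tested.

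By position, the 46 replication-dependent genes on chromosome 6 had medians of -0.65 and -0.92, with 35 and 40 that fell. The 9 genes on chromosome 1 had medians of -0.39 and -0.52, with 7 and 8 that fell. Their ranges overlap, and chromosome 1 holds H2AC21, which fell by 0.81 and 1.06. Of the HIST3 genes, H2BC26 fell by 0.62 and 0.88 and H2AC25 by 0.48 and 0.54. Within replicates 1 to 3, with 3 arrays a group, 35 of the 47 histone genes called with RG7112 kept the call. The 12 that did not were H2AC15, H2AC18, H2AC19, H2AC20, H2AC25, H2AZ2, H2BC3, H2BC8, H2BC10, H2BC26, H4C5 and H4C15. For all of these but H2AC15 and H2AZ2, RG7112 replicate 3 was the highest of the 3 RG7112 arrays in this set. H4C5, for instance, had 12.24 on it, against 11.54 and 11.28. These within-set calls are not given without that array. Within replicates 4 to 6, 44 of 47 kept the call, all but H2AC20, H2AZ2 and H4C12. With HDM201 49 of 53 kept it in each set.

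**Figure D2:**
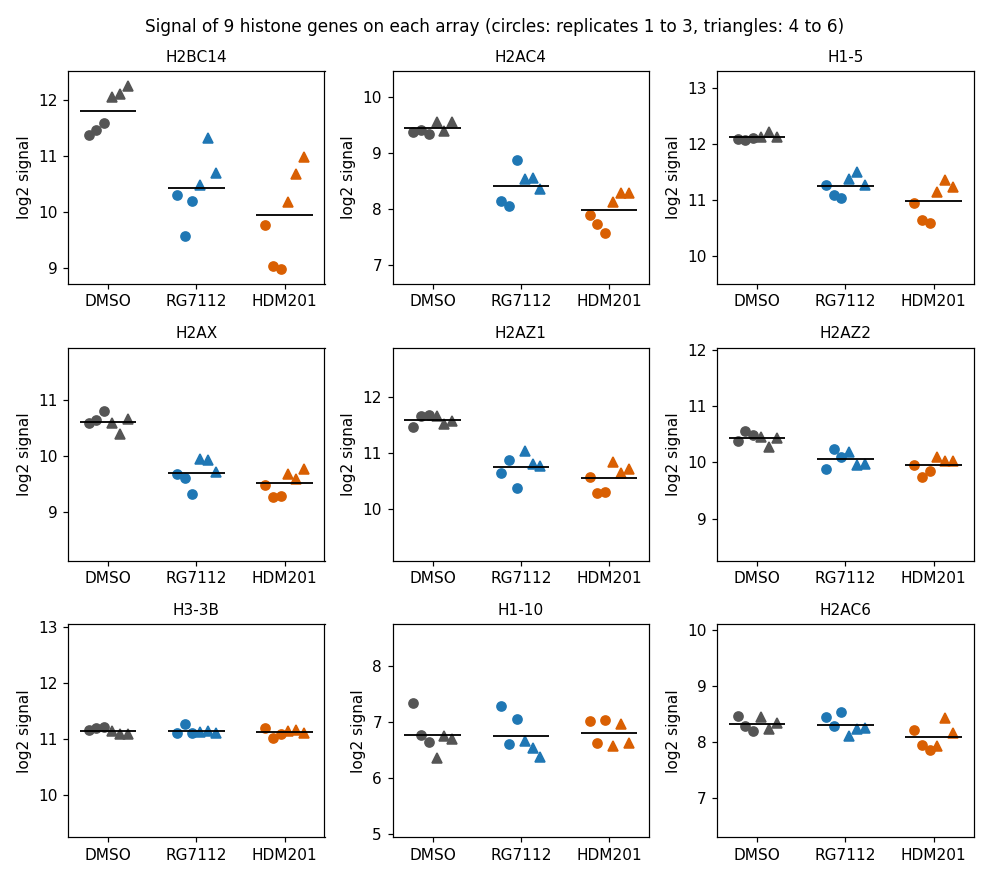
Log2 signal of 9 histone genes on each of the 18 arrays, with circles for replicates 1 to 3, triangles for 4 to 6 and bars for group means; every vertical axis spans the same width. The DMSO points lie above all treated points for H2BC14, H2AC4, H1-5, H2AX, H2AZ1 and H2AZ2, and overlap with them for H3-3B, H1-10 and H2AC6.

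Replacement and variant genes were split. H2AX, H2AZ1 and H2AZ2 fell with both compounds, and H3-3B and H1-10 did not pass with either. So 3 of 5 fell in each comparison, where 9.61% of all probes fell with RG7112 and 9.64% with HDM201. H2AX lay at 10.40 to 10.80 (median 10.62) under DMSO, 9.33 to 9.95 (median 9.71) under RG7112 and 9.28 to 9.78 (median 9.54) under HDM201. Its groups did not overlap with DMSO, and it fell 1.88-fold (-0.91 ± 0.11, adjusted p = 5.47e-06) and 2.14-fold (-1.10 ± 0.11, adjusted p = 3.14e-07). By set the RG7112 difference of H2AX was -1.13 and -0.68, and the HDM201 difference -1.32 and -0.87.

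H2AZ1 and H2AZ2 encode the H2A.Z proteins, which sit at promoters and other regulatory sites. H2AZ1 lay at 11.47 to 11.67 (median 11.61) under DMSO, 10.38 to 11.04 (median 10.79) under RG7112 and 10.29 to 10.83 (median 10.61) under HDM201, and fell 1.78-fold (-0.83 ± 0.11, adjusted p = 1.24e-05) and 2.04-fold (-1.03 ± 0.11, adjusted p = 5.96e-07). H2AZ2 lay at 10.27 to 10.56, 9.89 to 10.24 and 9.74 to 10.09 in the same order, and fell 1.30-fold (-0.37 ± 0.08, adjusted p = 0.00276) and 1.40-fold (-0.49 ± 0.08, adjusted p = 1.70e-04). The DMSO arrays of both genes were above all treated arrays. The RG7112 call of H2AZ2 was lost within replicates 1 to 3 (-0.40, adjusted p = 0.0844) and within 4 to 6 (-0.34, 0.0514), each with 3 arrays a group.

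H3-3B encodes H3.3, the H3 variant deposited independently of DNA copying. Its signals were 11.09 to 11.22 (median 11.15) under DMSO, 11.11 to 11.27 (median 11.13) under RG7112 and 11.03 to 11.21 (median 11.13) under HDM201. The 3 groups overlapped, with differences of -0.01 ± 0.06 (95% interval -0.14 to 0.12, adjusted p = 0.949) and -0.03 ± 0.06 (-0.15 to 0.10, adjusted p = 0.842). H1-10, a linker histone outside the clusters, differed by 0.00 ± 0.16 (-0.34 to 0.33) and 0.05 ± 0.16 (-0.28 to 0.38), with DMSO signals of 6.35 to 7.33. The variants as a class had medians of -0.37 and -0.49, against -0.65 and -0.90 for the replication-dependent genes. H2AX and H2AZ1 lay below the replication-dependent median, and H2AZ2, H3-3B and H1-10 above it, so the classes overlap, and the difference between classes was not tested.

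None of the 6 germline genes (H1-6, H1-7, H1-8, H2AC1, H2BC1 and H3-4), known for expression in testis or egg, passed in either comparison by limma. At an unadjusted p under 0.05, 2 and 1 of the 6 did, where 30.5% and 29.1% of all probes did. Their DMSO means were 4.34 to 5.58, and their differences ran from -0.21 to 0.24 with RG7112 and from -0.24 to 0.10 with HDM201. With 1 array left out, H2AC1 passed with RG7112 (without DMSO replicate 6) and H3-4 with HDM201 (without HDM201 replicate 5). Among the 5 replication-dependent genes whose mean lay below the 25th percentile of probes (H1-1, H2BC3, H3C3, H3C8 and H4C7), 1 fell with RG7112 and 2 with HDM201. Among the other 51, 41 and 46 fell.

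HDM201 gave lower means than RG7112 for 53 of the 56 replication-dependent genes, all but H2BC4, H3C3 and H4C16, and for 10499 of the 21448 probes. The doses differ, so this sets the treatments and not equal doses side by side. None of the 56 passed in the direct comparison by limma, nor did any of the 21448 probes (0% lower and 0% higher; adjusted p = 0.991 or above for the genes named here). At an unadjusted p under 0.05, 28 of the 56 did, beside 749 of all probes, of which 469 (2.19%) were lower with HDM201. No histone gene had HDM201 and RG7112 arrays without overlap, where 0.0420% of probes did in each direction. The median difference of HDM201 minus RG7112 was -0.24 (-0.38 within replicates 1 to 3 and -0.10 within 4 to 6). RG7112 replicate 3 had the highest mean signal of its group over the 56 genes, 8.58 where the other RG7112 arrays had 8.17 to 8.52. These medians and the counts of 53 and 28 are not given without that array. H2AC4 differed by -0.43 (95% interval -0.71 to -0.15), H2BC14 by -0.49 (-1.14 to 0.16), H2AX by -0.19 (-0.41 to 0.04) and H3-3B by -0.02 (-0.15 to 0.11).

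The HDM201 difference was lower in replicates 1 to 3 than in 4 to 6 for 48 of the 56 genes, where this held for 51.1% of all probes, and the RG7112 difference for 22 of 56, where it held for 50.7%. A test of the difference between the sets passed for 0 of the 69 members with either compound in limma (the lowest adjusted p was 0.761 for H2AX with RG7112 and 0.365 for H3C2 with HDM201), where 0.0373% and 0.149% of all probes passed. At an unadjusted p under 0.05, 4 and 10 of the 69 did, where 6.10% and 6.13% of all probes did. Among DMSO arrays, none of the 56 genes differed between the sets (adjusted p under 0.05 in limma; 4 at an unadjusted p under 0.05, where 5.86% of all probes did), the median difference of replicates 1 to 3 minus 4 to 6 was -0.05, and the lowest were H2AC15 at -0.68 and H2BC14 at -0.67 (adjusted p = 0.385 and 0.529).

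**Figure D3:**
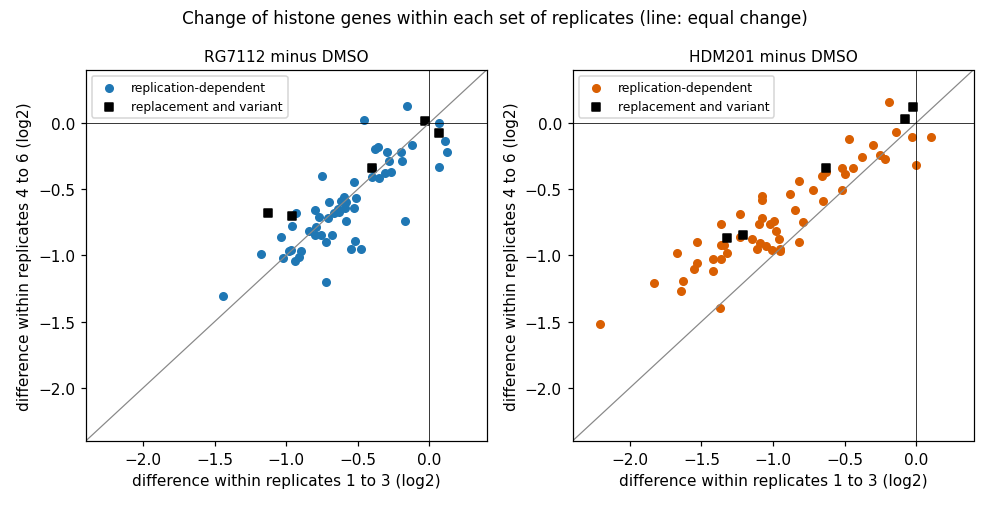
Differences from DMSO (log2) within replicates 1 to 3 (horizontal) and 4 to 6 (vertical) for replication-dependent genes (coloured circles) and variant genes (black squares), with a line of equal change. With HDM201 48 of 56 replication-dependent genes lie above the line, and with RG7112 the points lie on both sides.

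S-phase genes moved alongside. Of 12 companions 11 fell in each comparison, where 9.61% and 9.64% of all probes fell, and their medians were -1.37 and -1.68. CDC6, which loads the replicative helicase, fell 3.14-fold and 4.33-fold. RRM2, a subunit of the enzyme that makes deoxynucleotides, fell 2.77-fold and 3.34-fold, and MCM3, a helicase subunit, 2.91-fold and 3.58-fold. TYMS, which makes thymidylate, fell over all arrays but did not pass within either set with RG7112 (adjusted p = 0.180 and 0.117) or within replicates 1 to 3 with HDM201 (0.0563). PCNA, the sliding clamp of DNA polymerase and a p53 target, did not pass (0.14 ± 0.10, adjusted p = 0.398 and 0.407). The mean signal over the 56 histone genes was 8.91 to 9.01 on the DMSO arrays, 8.17 to 8.58 with RG7112 and 7.88 to 8.41 with HDM201. The S-phase mean was 9.77 to 10.04, 8.48 to 9.01 and 8.13 to 8.73. Both means separated DMSO from all treated arrays, and the part of S-phase cell number in the histone values was not tested.

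**Figure D4:**
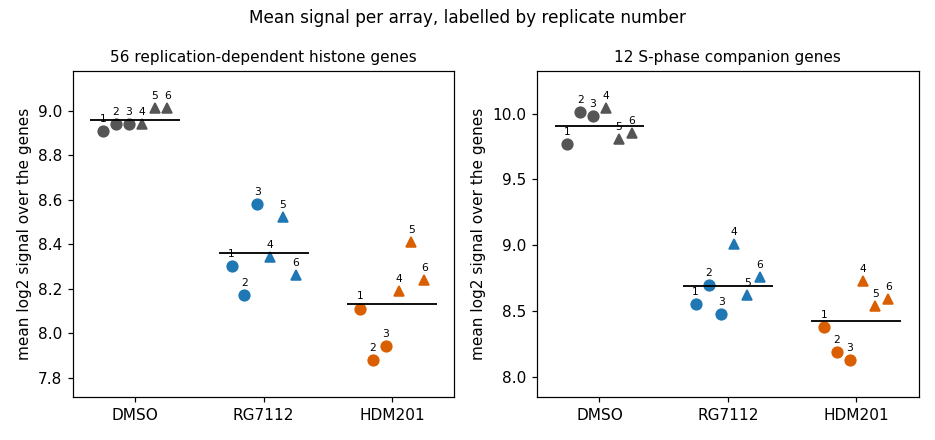
Mean log2 signal per array over the 56 replication-dependent histone genes (left) and the 12 S-phase genes (right), with replicate numbers beside the points and bars for group means. On both sides the 6 DMSO arrays lie above all treated arrays, and RG7112 replicate 3 is highest of its group on the left (8.58) and lowest on the right (8.48).

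Genes that supply and place histones were taken as a wider list of 36, of which 33 were measured. With RG7112 20 fell, none rose and 13 did not pass, and with HDM201 21 fell, none rose and 12 did not pass. Of all probes 9.61% and 9.64% fell, shares that also stand beside the counts by group below. The medians were -0.41 in both. In the transcription group 5 of 6 fell in each comparison. NPAT lay at 7.90 to 8.12 (median 8.02) under DMSO, 7.01 to 7.59 under RG7112 and 6.99 to 7.62 under HDM201, without overlap, and fell 1.59-fold (adjusted p = 1.01e-04) and 1.65-fold (adjusted p = 2.79e-05). CASP8AP2, also named FLASH, a partner of NPAT in histone locus bodies, fell 2.03-fold and 2.27-fold, with RG7112 replicate 3 at 7.16 and the other RG7112 arrays at 8.06 to 8.27. CCNE2, a cyclin E, fell 3.60-fold and 4.29-fold, and CDK2, its kinase, 2.22-fold and 2.70-fold (adjusted p = 1.55e-07 and 4.18e-09). HINFP, the activator of H4 genes, did not pass (0.00 ± 0.08 and 0.17 ± 0.08).

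In 3′ end processing and decay 4 of 9 fell with RG7112 and 5 with HDM201. SLBP, which binds the stem-loop, lay at 9.14 to 9.69 under DMSO, 8.23 to 9.13 under RG7112 and 8.64 to 8.98 under HDM201, and fell 1.53-fold (-0.61 ± 0.12, adjusted p = 0.00141) and 1.60-fold (-0.68 ± 0.12, adjusted p = 4.13e-04). Its RG7112 call was lost within replicates 1 to 3 (-0.55, adjusted p = 0.0578). ERI1, a nuclease that trims and degrades histone RNA, fell by 0.72 and 0.95. ZNF473 and CPSF3, which fell over all arrays in both comparisons, did not pass with RG7112 in replicates 1 to 3 (adjusted p = 0.185 and 0.271) or with HDM201 in 4 to 6 (0.0754 and 0.0947). LSM11, called with HDM201 only, lay close to the threshold with RG7112 (-0.42 ± 0.15, adjusted p = 0.0544). With HDM201 it did not pass in replicates 1 to 3 (0.120). Of the general cleavage factors on the list, CPSF3 thus fell over all arrays (-0.32 and -0.39), and CPSF2 and SYMPK did not pass.

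All 7 chaperones of new histones fell with both compounds over all arrays. Within the sets RBBP4 did not pass with RG7112 (adjusted p = 0.217 and 0.103), nor ASF1A with HDM201 (0.168 and 0.0573) or with RG7112 in replicates 1 to 3 (0.0778). CHAF1B, a subunit of the assembly factor CAF-1, fell 3.32-fold and 3.85-fold, with RG7112 replicate 3 at 5.79 and the other RG7112 arrays at 7.01 to 7.64, and ASF1B fell by 1.05 and 1.26. Of 6 measured chaperones of variants 3 fell in each comparison, by 0.25 to 0.57: ANP32E, which removes H2A.Z, DAXX, which places H3.3, and CABIN1. CABIN1 did not pass within either set with either compound, DAXX within either set with HDM201 (adjusted p = 0.190 and 0.0719) or within replicates 1 to 3 with RG7112 (0.0986), and ANP32E within 4 to 6 with RG7112 (0.0637). Among variants outside the main list CENPA, the H3 of centromeres, fell by 0.98 and 1.30, and MACROH2A1, MACROH2A2, H2AJ and H3-5 did not pass. MACROH2A2 lay close to the threshold with HDM201 (-0.25 ± 0.09, adjusted p = 0.0519).

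**Figure D5:**
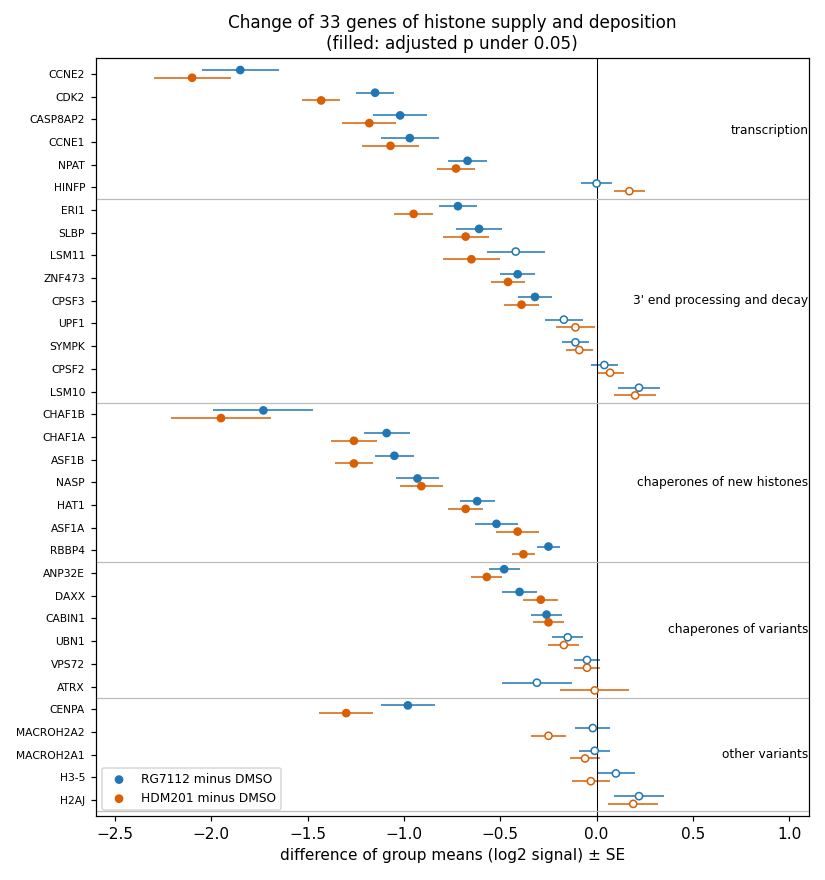
Differences of group means (log2 signal) with SE for 33 genes of histone supply and deposition in 5 groups, RG7112 minus DMSO in blue and HDM201 minus DMSO in orange, filled where adjusted p was under 0.05. All 7 chaperones of new histones lie left of 0 with filled points, and CCNE2 is lowest at -1.85 and -2.10.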

How the data were processed

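Total RNA was amplified and biotin-labelled for 18 Affymetrix arrays, per the labels' protocols. Values were deposited by the authors on the log2 scale, and oligo and RMA are the tools named in the submitters' processing notes. Their versions: not given in the sources used here. Of 21448 probes, 17709 had 1 gene symbol in the platform annotation, 0 several and 3739 none. Each member had a single probe, so no choice among probes was needed. All 18 columns were used, with no array dropped.

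limma 3.58.1 in R 4.3.3 fitted a mean per group with empirical Bayes, and p-values were adjusted over all probes. The fit was tested on simulated data. Within-set fits used 3 arrays a group. Alternatives changed the prior (trend and robust), array weights, the filter on dim probes (2 levels), the normalization (median subtraction, quantile) and the arrays fitted (12 compared, each set, each array left out), or added the replicate number as a block or the set as a term. Promoters are RefSeq's (GRCh38.p14). Depth is not defined for arrays, whose number limits the precision.

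The members and lists were chosen with earlier results of these data known. The text names in full the variants, the 8 lowest and highest called members per compound and those called for 1 compound, and of the supply genes NPAT, SLBP, CASP8AP2 and the 3 lowest and highest called; any other member or listed gene may be named. Deviations of same-numbered RG7112 and HDM201 arrays correlated at 0.12 to 0.44, a hint of pairing that no label states. Replicate numbers 2 and 3 each correlated best with the other number in place of their own. The main fit of HDM201 against RG7112 used no pairing. It called 0 probes, and no call changed under the block.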

Additional observations from a re-analysis of the deposited data

Results flagged for a closer look

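Within groups of 6 arrays, 5 of 75 groups tested over 25 named genes held an array whose gap to the nearest other array took up an unusually large share of the group's range (Dixon's test); chance gives about 1 in 20. RG7112 replicate 3 accounts for H4C13 (8.15 against 6.75 to 7.27 on the other arrays), CASP8AP2 (7.16 against 8.06 to 8.27) and CHAF1B (5.79 against 7.01 to 7.64). RG7112 replicate 2 was high for H3-3B (11.27 against 11.11 to 11.14). HDM201 replicate 4 was high for SLBP (8.98 against 8.64 to 8.76).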

How the results depend on the processing

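No called histone gene turned its direction under any alternative run, in either comparison with DMSO. The replication-dependent genes that fell numbered 33 to 48 with RG7112 and 43 to 49 with HDM201 over the 11 alternatives, and 41 to 46 and 46 to 49 with 1 array left out. Of 1444 differences of named genes under an alternative, 1383 kept direction and side of the threshold, 31 lost the call and 30 gained it. With replicate number as a block, 46 and 49 replication-dependent genes fell, and 2632 and 2543 of all probes. The block gained the RG7112 calls of H2BC4 (adjusted p = 0.0497), H2BC5 (0.0247), H4C11 (0.0226) and H4C13 (0.0216) and the HDM201 call of H3C6 (0.0418), and lost none among the histone genes. Of 12 pairs of same-numbered DMSO and treated arrays, 10 correlated over 0.1 in their deviations and 8 correlated best with their own number, a hint of pairing that did not hold for every pair and that no label states. Within replicates 1 to 3, 1080 probes fell and 893 rose with RG7112, and 1337 and 1167 with HDM201. Within 4 to 6 the counts were 1159 and 989, and 1297 and 1298. Those fits hold 3 arrays a group. Median subtraction gained H2BC4, H2BC5, H3C3, H3C8, H4C11 and H4C13 for RG7112 and H3C6 for HDM201. In HDM201 against RG7112 the probes called lower ranged from 0 to 1 with 1 array left out, with 1 without HDM201 replicate 6. Depth cannot be given for arrays. Dim probes limit what can be said of H1-1, H2BC3, H3C3, H3C8 and H4C7, also where H2BC3 and H3C8 were called.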
